A study of Mus musculus with 16 samples.

Results

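The endoplasmic reticulum (ER) chaperones and the genes of the unfolded protein response were followed in kidneys of mice with renal failure and of controls. The set holds 36 genes, taken by symbol from the 30277 rows of each of 2 deposited tables of TPM (transcript abundance scaled by gene length, here genomic span, and by library total), and all 36 were found in both tables. By role they are 17 chaperones and folding enzymes, 3 genes of the translocon, 7 genes of ER-associated degradation, 6 sensors and transcription factors, and 3 targets of the transcription factors ATF4 and CHOP.

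Polyadenylated RNA came from perfused, flash-frozen kidneys of 129S1/SvlmJ mice, an inbred strain made congenic for a recessive mutation of Klotho (Kl), whose product is a co-receptor for the hormone FGF23. The 3 male controls were +/Kl and 45, 45 and 46 days old, and the 5 male Kl/Kl mice were 45, 45, 45, 44 and 47 days old. The 4 female controls were +/+ and 45, 45, 49 and 48 days old, and the 4 female Kl/Kl mice were 45, 45, 54 and 48 days old. Controls had healthy renal function and Kl/Kl mice had renal failure, per the labels. The genotype of the controls thus went with sex. The mutation is carried by the whole animal, so a difference between Kl/Kl and control kidneys holds the effects of both the missing gene and the failing kidney, which cannot be told apart here. Whether the libraries of a group are all different mice is not stated in the labels. Ages differ within each group, so not all libraries of a group can come from the same mouse, but those of equal age may. P-values here thus stand for the spread among these samples only, which may be in part technical.

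The 16 libraries had estimated depths of 21.6 to 31.8 M reads. Kl itself stood at 4.14 to 15.1 TPM in male controls and 0.0235 to 0.265 TPM in male Kl/Kl libraries. In females it stood at 9.19 to 21.2 TPM in controls and 0.0268 to 0.518 TPM in Kl/Kl libraries. Low Kl thus went with the Kl/Kl labels, but these values do not tell +/Kl from +/+ controls. The lowest female value was that of Kl/Kl 3, where tissue and genotype cannot be told apart as the source of low Kl. The library labelled female Kl/Kl 3 did not look like kidney: its 8 proximal tubule markers summed to 78.5 TPM, against 1157 to 2578 TPM in the other female libraries, its 5 distal nephron markers to 2.10 TPM, and its 6 heart muscle and 4 airway markers to 1864 and 1058 TPM. Male control 3 also stood apart, with 54.3% of its TPM in mitochondrial genes (35.4% to 44.8% in the other males), 124 TPM of distal nephron markers (293 to 492 TPM in the other males) and a median-of-ratios scale factor of 0.622 (1.01 to 1.15 in the other males). The counts, and most changes, are therefore given both without these libraries and with them. In bulk kidney RNA, fewer cells of a type and less RNA per cell cannot be told apart.

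Chaperones of the ER bind newly made secreted and membrane proteins while they fold. BiP (Hspa5) and GRP94 (Hsp90b1) hold unfolded chains, calnexin and calreticulin hold glycoproteins through their sugars, and the protein disulfide isomerases form and reshuffle disulfide bonds. When unfolded proteins build up, the sensors IRE1 (Ern1), PERK (Eif2ak3) and ATF6 signal to the nucleus through XBP1, ATF4 and cleaved ATF6, and the response raises transcription of chaperones and of degradation genes. Kidney tubule cells make and recycle large amounts of membrane transporter, and ER stress is a known feature of kidney injury models. Gene-level TPM does not separate spliced from unspliced Xbp1, and it measures neither phosphorylation of the sensors nor cleavage of ATF6.

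The chaperone promoters are known for the ER stress response element (ERSE), which reads CCAAT, then any 9 bases, then CCACG. It was searched on both strands in RefSeq promoter windows of mouse build GRCm38.p6, from 250 bases before to 50 bases after the transcript start, for the 31 of 36 genes that matched by symbol (all but Hyou1, Derl1, Manf, Atf6 and Sec61a1). ERSE occurred in 10 of the 31 genes (32.3%) and in 39 of all 32851 windows (0.119%). The windows below show the element with up to 30 bases on either side, read along the gene's strand, for the chaperones with ERSE other than Ero1b. The genes shown are not the same as those that fell in the tests described further on. Canx and Creld2 are shown but missed the threshold in the fit on TPM. Pdia3, Pdia4 and Dnajb11 fell in a male fit but had no match to ERSE, and Hyou1 fell there but had no window. Capitals mark the fixed letters of the element. Calr, Creld2 and the lower of the Hsp90b1 windows hold it in the opposite orientation, so that it reads CGTGG and then ATTGG. Across these genes the element begins 65 to 212 bases before the start.
Hspa5 (chr2:34771995-34772073, plus strand): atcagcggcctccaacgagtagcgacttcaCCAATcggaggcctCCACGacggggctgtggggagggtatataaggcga
Hsp90b1 (chr10:86705608-86705686, minus strand): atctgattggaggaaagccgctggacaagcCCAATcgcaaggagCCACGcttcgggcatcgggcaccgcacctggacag
Hsp90b1 (chr10:86705503-86705581, minus strand): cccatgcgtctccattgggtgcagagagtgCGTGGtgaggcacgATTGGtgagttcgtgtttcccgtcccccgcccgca
Calr (chr8:84847045-84847123, minus strand): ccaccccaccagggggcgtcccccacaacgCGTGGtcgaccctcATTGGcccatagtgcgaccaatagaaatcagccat
Canx (chr11:50325770-50325848, minus strand): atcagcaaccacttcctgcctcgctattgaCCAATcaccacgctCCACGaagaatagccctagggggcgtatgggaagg
Pdia6 (chr12:17266461-17266539, plus strand): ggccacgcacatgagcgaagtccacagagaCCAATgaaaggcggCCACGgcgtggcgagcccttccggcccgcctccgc
Dnajc3 (chr14:118937797-118937875, plus strand): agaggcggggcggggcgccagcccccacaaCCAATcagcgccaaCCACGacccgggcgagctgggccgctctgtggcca
Creld2 (chr15:88819490-88819568, plus strand): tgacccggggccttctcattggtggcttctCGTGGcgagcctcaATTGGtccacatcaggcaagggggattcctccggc

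The other members with ERSE were Ero1b, Syvn1 and Derl3. The related ERSE-II, which reads ATTGG, any base and then CCACG, was in 2 of the 31 genes, Dnajb11 and Herpud1, and in 12 windows of the whole table (0.0365%). The core of the unfolded protein response element, TGACGTG, was in Hspa5 alone (2.01% of all windows), and the element bound by ATF4 and its partners, TGATGCAA or TGATGAAA, was in Herpud1, Asns and Chac1 (1.9% of all windows). Herpud1 is shown because it holds both ERSE-II and an ATF4 element and its values differ from those of the chaperones, and Chac1 as a target of ATF4 with that element in the opposite orientation.
Herpud1, ERSE-II (chr8:94386347-94386417, plus strand): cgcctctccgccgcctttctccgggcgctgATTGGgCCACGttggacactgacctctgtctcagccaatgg
Herpud1, ATF4 element (chr8:94386287-94386354, plus strand): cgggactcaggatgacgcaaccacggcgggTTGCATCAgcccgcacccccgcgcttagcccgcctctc
Chac1, ATF4 element (chr2:119351019-119351086, plus strand): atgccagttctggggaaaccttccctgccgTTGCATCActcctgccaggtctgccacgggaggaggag

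Most chaperones and folding enzymes stood lower in Kl/Kl than in control kidneys of both sexes once male control 3 was set aside, while levels of the sensors and transcription factors mostly overlapped between groups. With male control 3 left out, all 5 male Kl/Kl libraries were lower than both controls in 16 of the 17 chaperones (all but Dnajb9), and 9 of the 15 chaperones tested fell at an adjusted p under 0.05 (limma on log2(TPM + 1), Benjamini-Hochberg over all genes). Over all members, 25 of 36 did not overlap. Of the 27 members tested 21 did not, against 22.7% of the 8640 genes tested. Of the same 27, 10 fell and 0 rose, against 7.36% of all genes that fell and 3.16% that rose. With control 1 or control 2 left out as well, 0 members passed (the lone control is then assumed to vary like the other group), and without male Kl/Kl 1 6 passed. On the same libraries 2 members passed with no filter on low values (2.81% of all genes fell there) and 3 in a model of all 4 groups (2.28%). In females, 11 of 36 members were lower in all Kl/Kl libraries than in any control (10 of the 11 are chaperones), with or without Kl/Kl 3. Of the 28 members tested in females 10 did so, against 3.54% of all genes with all libraries and 3.9% without Kl/Kl 3.

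With all 8 male libraries the result was different. No member passed the threshold in limma (0 of 27 tested, against 5.92% of 8439 genes), 2 had an unadjusted p under 0.05 (Calr lower, Herpud1 higher; 26.9% of all genes did), and no member had groups that did not overlap, against 4.4% of all genes that were lower in every Kl/Kl library. Male control 3 was the lowest male control in 36 of 36 members, and the median change of all genes in that comparison was 0.19 on the log2 scale, against -0.18 for the members tested. When the male libraries were scaled by median-of-ratios factors, which moved the median of all genes to 0.0111, 7 members fell with all 8 libraries kept (against 8.36% of all genes). These were Hsp90b1, Calr, Pdia3, Pdia6, Dnajb11, Derl2 and Ddit3, and 5 of the 7 (the first 5) were also among the 10 that fell without control 3. On voom, limma's test on estimated reads, with a minimum mean of 10 reads, 1 of 36 members fell with all male libraries (Calr), against 5.12% of all genes.

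In females no member passed the threshold: 0 of 28 tested with all libraries, where 3 of 8596 genes did (0.0349%), and 0 of 28 without Kl/Kl 3, where 9 of 8748 did (0.103%). Voom also called 0 in both. At an unadjusted p under 0.05, 6 members were lower with all libraries (1.72% of all genes were) and 12 without Kl/Kl 3 (4.6% of all genes were), and none was higher. Of those 12, 9 were among the 10 that fell in males without control 3.

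Hspa5 encodes BiP, the main ER chaperone of the Hsp70 family, and lies on chromosome 2 from 34661982 to 34667560 (mm39, plus strand, as deposited). Its levels were 153, 95.2 and 32.7 TPM in male controls and 43.2, 61.2, 74.2, 40.2 and 47.0 TPM in male Kl/Kl libraries. Female controls stood at 81.7, 149, 133 and 120 TPM and female Kl/Kl libraries at 88.4, 89.0, 69.5 and 70.4 TPM. The groups separated in males once control 3, the lowest library of all, was left out, while in females control 1 fell within the Kl/Kl range. The male change was -1.21 ± 0.28 (SE) without control 3 (limma adjusted p = 0.034; n = 2 and 5) and -0.59 ± 0.42 with it (adjusted p = 0.376). The female change was -0.52 ± 0.20 without Kl/Kl 3 (adjusted p = 0.224) and -0.58 ± 0.21 with it (adjusted p = 0.745). Kl/Kl means were 42.9% of the control mean in males without control 3 and 68.3% in females without Kl/Kl 3.

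Hsp90b1 encodes GRP94, the Hsp90 protein of the ER (chromosome 10, 86526073 to 86541374, minus strand). It stood at 39.2, 31.5 and 14.9 TPM in male controls and at 16.6, 21.5, 23.7, 15.4 and 18.9 TPM in male Kl/Kl libraries. Female controls were at 33.5, 40.3, 36.3 and 42.4 TPM and female Kl/Kl libraries at 28.7, 24.6, 30.3 and 24.9 TPM. Control 3 was below all 5 male Kl/Kl libraries, and the female groups did not overlap, with or without Kl/Kl 3. The male change was -0.85 ± 0.19 without control 3 (limma adjusted p = 0.0293) and -0.46 ± 0.29 with it (adjusted p = 0.328). The female change was -0.53 ± 0.10 without Kl/Kl 3 (adjusted p = 0.0852), the smallest adjusted p of any member in females in that fit, and -0.48 ± 0.15 with it (adjusted p = 0.745).

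Calr encodes calreticulin, a calcium-binding lectin chaperone (chromosome 8, 85568479 to 85573564, minus strand). Its levels were 171, 131 and 74.1 TPM in male controls, against 61.5, 74.7, 82.2, 44.0 and 69.7 TPM in male Kl/Kl libraries. In females they were 116, 128, 132 and 140 TPM in controls and 108, 82.4, 28.2 and 82.8 TPM in Kl/Kl libraries. Here control 3 lay inside the Kl/Kl range rather than below it. The male change was -1.19 ± 0.24 without control 3 (limma adjusted p = 0.024) and -0.85 ± 0.30 with it (unadjusted p = 0.0146, adjusted p = 0.101). The female change was -0.51 ± 0.11 without Kl/Kl 3 (adjusted p = 0.094) and -0.92 ± 0.39 with it (adjusted p = 0.745). Canx, its membrane-bound partner calnexin (chromosome 11, 50184788 to 50216501), ranged over 17.5 to 18.9 TPM in male controls 1 and 2, 4.87 TPM in control 3 and 10.3 to 13.9 TPM in male Kl/Kl libraries. Its female controls spanned 16.7 to 18.7 TPM and its female Kl/Kl libraries 9.83 to 16.1 TPM. Its male change of -0.51 ± 0.14 without control 3 missed the threshold (adjusted p = 0.0532), and with control 3 it was 0.06 (adjusted p = 0.927). Its female change was -0.20 ± 0.07 without Kl/Kl 3 (adjusted p = 0.182) and -0.35 ± 0.18 with it (adjusted p = 0.745).

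**Figure D1:**
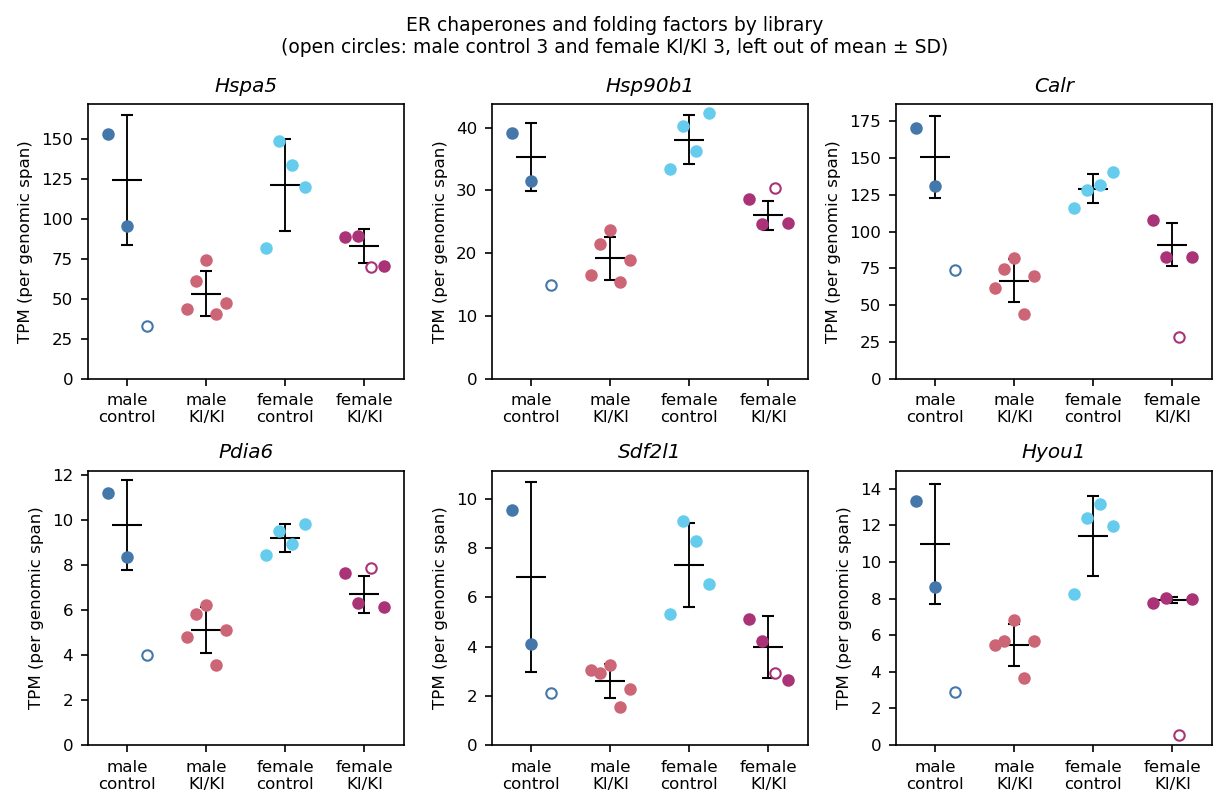
TPM of 6 chaperones and folding factors in each library (y axis, TPM scaled by genomic span, starting at 0), by sex and genotype; bars give the mean ± SD without male control 3 and female Kl/Kl 3, which are drawn as open circles. Male Kl/Kl libraries lie below male controls 1 and 2 in all 6 genes, male control 3 lies among or below them, and the female groups do not overlap in Hsp90b1, Calr, Pdia6, Sdf2l1 and Hyou1.

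The disulfide isomerases followed the same order of groups in males without control 3, and in females Pdia6 and Pdia3 did so without overlap. Pdia6 (chromosome 12, 17316546 to 17334772) was at 11.2, 8.34 and 3.98 TPM in male controls and 4.79, 5.79, 6.23, 3.55 and 5.11 TPM in male Kl/Kl libraries, and at 8.43 to 9.81 TPM in female controls against 6.14 to 7.83 TPM in female Kl/Kl libraries. It fell by 0.82 ± 0.19 in males without control 3 (limma adjusted p = 0.0348), and the change was -0.46 with control 3 (adjusted p = 0.304). In females the change was -0.41 ± 0.09 without Kl/Kl 3 (adjusted p = 0.094) and -0.36 with it (adjusted p = 0.745). Pdia3, the isomerase that works with calnexin and calreticulin (chromosome 2, 121244256 to 121269169), stood at 18.8, 15.6 and 9.49 TPM in male controls and 8.42 to 12.0 TPM in male Kl/Kl libraries, and at 16.1 to 17.0 TPM in female controls against 7.32 to 14.5 TPM in female Kl/Kl libraries. It fell by 0.66 ± 0.16 in males without control 3 (adjusted p = 0.036), and the change was -0.40 with control 3 (adjusted p = 0.289). Pdia4 (chromosome 6, 47773075 to 47790365) fell by 0.58 ± 0.11 there (adjusted p = 0.0214), from 10.3 and 8.06 TPM to between 5.36 and 6.02 TPM, with control 3 at 3.55 TPM. With that library kept the Pdia4 change was -0.20 (adjusted p = 0.634). Female Pdia4 overlapped, at 6.81 to 9.23 TPM in controls and 3.95 to 7.06 TPM in Kl/Kl libraries. P4hb, protein disulfide isomerase itself and also a subunit of collagen prolyl hydroxylase, was the least different of the 4: 54.9 and 49.7 TPM in male controls 1 and 2, 26.2 TPM in control 3 and 38.9 to 45.1 TPM in male Kl/Kl libraries (adjusted p = 0.144 without control 3 and 0.937 with it). Female P4hb was 44.3 to 48.1 TPM in controls and 42.2 to 45.2 TPM in Kl/Kl libraries other than Kl/Kl 3 (17.0 TPM).

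The co-chaperones and exchange factors that work with BiP differed in size of change. Sdf2l1, a partner of ER DnaJ proteins (chromosome 16, 16948002 to 16950248), was at 9.55, 4.11 and 2.10 TPM in male controls and 3.04, 2.94, 3.23, 1.55 and 2.28 TPM in male Kl/Kl libraries. In females it was at 5.33, 9.11, 8.27 and 6.56 TPM in controls and 5.11, 4.23, 2.91 and 2.64 TPM in Kl/Kl libraries, with no overlap. The Kl/Kl mean was 38.2% of the control mean in males without control 3 and 54.5% in females without Kl/Kl 3, yet neither change passed the threshold (-1.05 ± 0.29, limma adjusted p = 0.0569, and -0.75 ± 0.21, adjusted p = 0.129). With all libraries they were -0.63 in males (adjusted p = 0.242) and -0.83 in females (adjusted p = 0.745).

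Hyou1, an Hsp110-type exchange factor for BiP (chromosome 9, 44290787 to 44303667), was at 13.3, 8.65 and 2.91 TPM in male controls and 5.44, 5.69, 6.85, 3.66 and 5.66 TPM in male Kl/Kl libraries. In females it was at 8.24, 12.4, 13.2 and 11.9 TPM in controls and 7.75, 8.02, 0.538 and 7.98 TPM in Kl/Kl libraries. The female groups did not overlap, but control 1 was only just above the Kl/Kl libraries. It fell by 0.88 ± 0.22 in males without control 3 (limma adjusted p = 0.0427), and the change was -0.35 with control 3 (adjusted p = 0.527). The female change was -0.46 ± 0.14 without Kl/Kl 3 (adjusted p = 0.153) and -1.09 ± 0.58 with it (adjusted p = 0.745). Leaving out female control 1 as well took the female change to -0.597 (adjusted p = 0.0438), the only call of a female member when 1 further library was left out.

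Dnajb11, a DnaJ co-chaperone of BiP (chromosome 16, 22676595 to 22698385), stood at 5.24, 4.16 and 2.22 TPM in male controls and 2.59 to 3.26 TPM in male Kl/Kl libraries, and at 3.88 to 4.54 TPM in female controls against 3.21 to 3.28 TPM in female Kl/Kl libraries other than Kl/Kl 3 (1.48 TPM). It fell by 0.56 ± 0.11 in males without control 3 (limma adjusted p = 0.0217), and the change was -0.29 with control 3 (adjusted p = 0.376). Dnajc3, which encodes p58IPK, a BiP co-chaperone also known to inhibit PERK (chromosome 14, 119175388 to 119219110), fell by 0.46 ± 0.11 there (adjusted p = 0.0367), from 5.44 and 6.11 TPM to between 3.30 and 4.33 TPM, with control 3 at 1.72 TPM. With control 3 kept, the Dnajc3 change was -0.02 (adjusted p = 0.964). Dnajb9 (ERdj4), in contrast, was at 13.9, 11.4 and 4.56 TPM in male controls and 10.9 to 17.0 TPM in male Kl/Kl libraries, and at 11.0 to 14.6 TPM in female controls against 12.6 to 14.7 TPM in female Kl/Kl libraries other than Kl/Kl 3 (8.69 TPM). Its groups overlapped in both sexes, and its Kl/Kl mean was 113% of control in males without control 3 and 99.9% in females without Kl/Kl 3.

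The remaining folding factors differed by varying amounts, and none passed the threshold in the fit on TPM. Creld2, a secreted ER stress protein, was at 7.76, 3.96 and 2.27 TPM in male controls and 2.15 to 3.57 TPM in male Kl/Kl libraries (-0.77 ± 0.24 without control 3, limma adjusted p = 0.0705, and -0.44 with it, adjusted p = 0.329). Its female libraries overlapped, at 3.65 to 8.04 TPM in controls and 1.88 to 5.10 TPM in Kl/Kl. Manf, a secreted factor induced by ER stress, averaged under 1 TPM over the male libraries and was not tested there in the fit on TPM. It stood at 1.86, 1.06 and 0.605 TPM in male controls and 0.407 to 0.821 TPM in male Kl/Kl libraries, and on voom with a minimum mean of 10 estimated reads it fell by 1.09 ± 0.32 without control 3 (adjusted p = 0.0483), with -0.91 ± 0.29 when control 3 was kept (adjusted p = 0.0515). Female Manf overlapped, at 0.811 to 1.82 TPM in controls and 0.706 to 1.21 TPM in Kl/Kl (-0.25 ± 0.16 on TPM without Kl/Kl 3, adjusted p = 0.416). The voom test in males without control 3 covered all 36 members, and 9 of them fell, against 5.25% of all genes: Hspa5, Hsp90b1, Calr, Pdia4, Pdia6, Dnajb11, Hyou1, Manf and Edem1. Ppib (cyclophilin B) was at 25.9 to 26.0 TPM in male controls 1 and 2, 19.1 TPM in control 3 and 20.5 to 25.5 TPM in male Kl/Kl. Its female groups overlapped, and the Kl/Kl mean was 99.2% of the control mean without Kl/Kl 3. The disulfide donor Ero1b was at or below 0.314 TPM in every library.

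**Figure D2:**
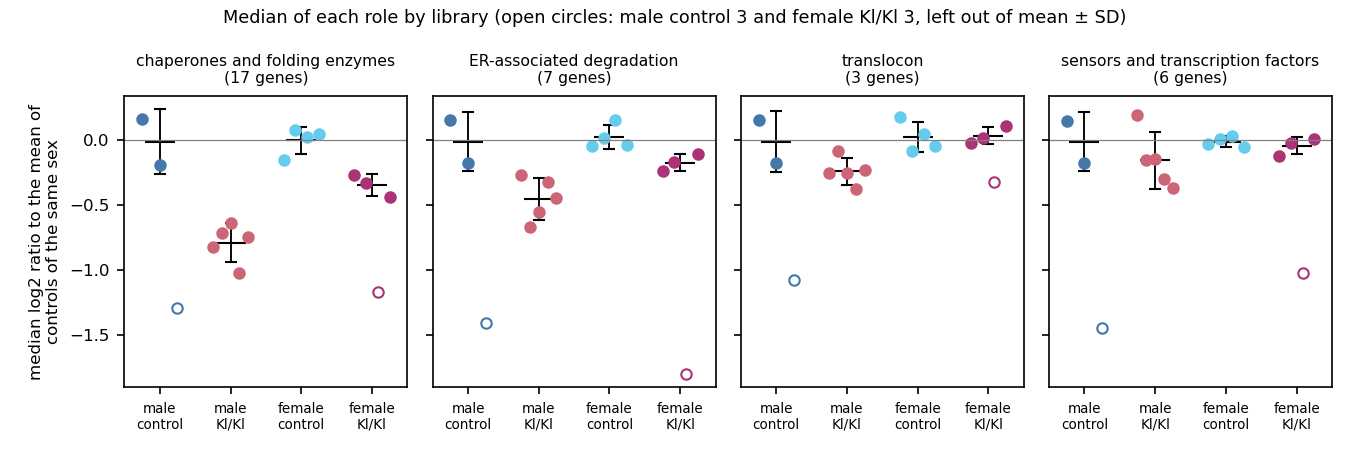
Median log2 ratio of each role's genes to the mean of the controls of the same sex (y axis; reference without male control 3) in each library; bars give the mean ± SD of the library medians without male control 3 and female Kl/Kl 3, drawn as open circles. The chaperone medians of male Kl/Kl libraries lie between -1.03 and -0.635 and those of the other 3 female Kl/Kl libraries between -0.44 and -0.269, whereas the sensor medians of male Kl/Kl libraries lie between -0.37 and 0.199. Apart from the open circles, the medians of ER-associated degradation also keep the groups apart in both sexes. The sensor list holds 6 genes, of which 3 reached the 1 TPM filter.

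Among libraries, the chaperone medians kept the groups apart in each sex once the 2 libraries were left aside, as the plot of role medians shows. The medians of ER-associated degradation did so too, at -0.67 to -0.268 in male Kl/Kl libraries against -0.172 and 0.154 in male controls. In females they were -0.234 to -0.109 in Kl/Kl libraries and -0.047 to 0.158 in controls. Male Kl/Kl 4 was the lowest male Kl/Kl library in 13 of the 17 chaperones and had the lowest chaperone median (-1.03). Male control 1 was the highest male control in 16 of 17. Female control 1 was the lowest female control in 13 of 17, and its median was -0.154. The median change of the 15 chaperones tested in males was -0.658 without control 3 and -0.354 with it. In females it was -0.287 over 16 chaperones without Kl/Kl 3 and -0.465 with it, where the medians of all genes were 0.0586 and -0.157. For the 3 transcription factors tested (Xbp1, Atf4 and Ddit3) the median change in males was -0.393 without control 3, with all 3 negative, and -0.0638 with it. In females their median was -0.0489 without Kl/Kl 3 and -0.112 with it.

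Markers of other cells differed between the male groups. The 7 plasma cell markers, a cell type rich in ER chaperones, summed to 88.5 to 89.5 TPM in male controls and 6.35 to 29.4 TPM in male Kl/Kl libraries. Nearly all of this was Igkc (84.1 to 85.5 TPM in male controls), and Jchain was at 1.80 to 2.62 TPM there against 0.0839 to 0.700 TPM in Kl/Kl. The defining markers Pou2af1 and Tnfrsf17 were at 0.0168 TPM or less in every male library, and Mzb1 was at 0.524 to 0.772 TPM in controls against 0.658 to 1.93 TPM in Kl/Kl. The plasma cell sum of male control 3 was 89.5 TPM. Female sums were 6.86 to 35.6 TPM in controls and 11.6 to 14.5 TPM in Kl/Kl libraries other than Kl/Kl 3 (204 TPM), which overlapped. Proximal tubule markers overlapped in males (controls 837 to 1647 TPM, Kl/Kl 981 to 1811 TPM) and distal nephron markers were higher in all male Kl/Kl libraries (401 to 492 TPM against 124 to 355 TPM). The 6 macrophage markers summed to 10.7, 7.76 and 5.76 TPM in male controls and 10.4 to 21.0 TPM in male Kl/Kl, and to 7.66 to 14.2 TPM in female controls against 10.0 to 34.4 TPM in Kl/Kl other than Kl/Kl 3 (462 TPM), so they overlapped in both sexes. Of these 6, Lyz2 and Cd68 were higher in every male Kl/Kl library than in any male control (5.51 to 9.23 TPM against 1.30 to 2.55 TPM for Lyz2), Csf1r was lower (0.879 to 1.87 TPM against 1.91 to 3.18 TPM), and Adgre1 was at 0.0379 TPM or less. The part of these cell types in the chaperone result was not tested.

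The 3 translocon genes, which move new chains into the ER, did not pass the threshold in any of the comparisons on TPM as deposited. Sec61a1, the channel subunit, was at 9.55, 7.17 and 2.97 TPM in male controls and 6.75 to 9.42 TPM in male Kl/Kl libraries. Its female values were 7.40 to 8.13 TPM in controls and 7.69 to 8.57 TPM in Kl/Kl libraries other than Kl/Kl 3 (1.21 TPM). Sec61b and Ssr1 were lower in every male Kl/Kl library than in controls 1 and 2, at 1.53 to 2.21 TPM against 2.33 and 2.94 TPM, and at 3.46 to 4.36 TPM against 4.39 and 4.60 TPM. The list median was -0.166 in males without control 3 and 0.0285 in females without Kl/Kl 3.

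Genes of ER-associated degradation, which return misfolded proteins to the cytosol for the proteasome, were split. Edem1, a lectin that picks misfolded glycoproteins (chromosome 6, 108805602 to 108836318), fell in males without control 3 by 0.52 ± 0.12 (limma adjusted p = 0.0296), and the change was -0.18 with control 3 (adjusted p = 0.627). It was at 3.93, 3.39 and 1.28 TPM in male controls and 2.41, 2.21, 2.01, 1.92 and 2.69 TPM in male Kl/Kl libraries. Female Edem1 was at 2.63, 2.52, 2.97 and 2.74 TPM in controls and 2.66, 2.41, 1.12 and 2.62 TPM in Kl/Kl libraries, a change of -0.06 ± 0.06 without Kl/Kl 3 and -0.25 ± 0.19 with it. The change in females minus the change in males was 0.46 ± 0.12 without the 2 libraries (unadjusted p = 0.00253, adjusted p = 0.0559), just short of the threshold, and -0.07 ± 0.32 with all libraries (adjusted p = 0.908). The channel genes Derl1 and Derl2 and the adaptor Sel1l were also below controls 1 and 2 in every male Kl/Kl library. Derl2 stood at 4.93 and 4.11 TPM there, 2.87 TPM in control 3 and 2.73 to 3.51 TPM in Kl/Kl (-0.42 ± 0.11 without control 3, adjusted p = 0.0512, and -0.25 with it, adjusted p = 0.36). Sel1l was also lower in every female Kl/Kl library (1.13 to 3.50 TPM against 3.60 to 4.41 TPM). The ubiquitin ligase Syvn1 (HRD1) overlapped in both sexes, at 6.02 and 8.30 TPM in male controls 1 and 2 against 4.50 to 6.18 TPM in Kl/Kl.

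Herpud1, a membrane protein of the HRD1 complex whose gene is a known target of both XBP1/ATF6 and ATF4 (chromosome 8, 95113066 to 95122006), went against the chaperones in males. It was at 60.2, 36.4 and 18.1 TPM in male controls and 99.9, 56.5, 55.6, 101 and 48.8 TPM in male Kl/Kl libraries. Kl/Kl libraries 1 and 4 were higher than any other, and the other 3 lay between controls 1 and 2. The male change was 0.99 ± 0.38 with all libraries (limma unadjusted p = 0.0252, adjusted p = 0.132) and 0.55 ± 0.35 without control 3 (adjusted p = 0.307). Female Herpud1 was at 42.4, 87.9, 82.5 and 68.2 TPM in controls and 59.7, 69.7, 4.95 and 65.2 TPM in Kl/Kl libraries, a change of -0.06 ± 0.23 without Kl/Kl 3 and -0.93 ± 0.80 with it. Derl3, at 1.37 TPM or less in every library, averaged under 1 TPM and was tested with no filter and on voom, where it did not pass (voom in males without control 3, -0.81 ± 0.38, adjusted p = 0.168). Its female levels were 0.316, 1.37, 1.11 and 1.14 TPM in controls and 0.468, 0.351, 0.0895 and 0.193 TPM in Kl/Kl.

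The sensors and transcription factors overlapped between groups in nearly every case. None of the 3 tested (Xbp1, Atf4 and Ddit3) passed the threshold in either sex on TPM as deposited, with or without the 2 libraries, and 1 of them (Ddit3) did so under median-of-ratios scaling with all male libraries. Xbp1, whose spliced message encodes the factor downstream of IRE1 (chromosome 11, 5470659 to 5475894), was at 29.7, 22.4 and 10.3 TPM in male controls and 37.6, 20.7, 23.3, 19.6 and 16.3 TPM in male Kl/Kl libraries. In females it was at 23.0, 26.3, 28.3 and 23.0 TPM in controls and 21.1, 25.8, 10.7 and 19.2 TPM in Kl/Kl libraries. Its change was -0.19 ± 0.29 in males without control 3 (limma adjusted p = 0.684), 0.23 with it, and -0.19 ± 0.12 in females without Kl/Kl 3 (adjusted p = 0.407) and -0.43 ± 0.26 with it (adjusted p = 0.745).

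Atf4, translated when PERK or a related kinase is active (chromosome 15, 80139385 to 80141743), was at 52.3, 34.9 and 21.0 TPM in male controls and 36.9, 38.3, 33.0, 31.9 and 23.6 TPM in male Kl/Kl libraries. Female controls were at 26.8, 33.5, 32.3 and 32.7 TPM and female Kl/Kl libraries at 28.7, 39.9, 19.0 and 31.4 TPM. Its groups overlapped in both sexes (-0.39 ± 0.22 in males without control 3, limma adjusted p = 0.259, and 0.08 ± 0.13 in females without Kl/Kl 3, adjusted p = 0.762). With all libraries the Atf4 changes were -0.06 in males and -0.11 in females. Ddit3 encodes CHOP, the factor linked to cell death in prolonged ER stress (chromosome 10, 127126643 to 127132158). It was at 3.42, 2.41 and 1.69 TPM in male controls and 2.33, 2.06, 1.76, 1.37 and 1.57 TPM in male Kl/Kl libraries, which all lay below controls 1 and 2. The male change was -0.47 ± 0.16 without control 3 (adjusted p = 0.0877) and -0.30 with it, and under median-of-ratios scaling with all libraries it was -0.469 (adjusted p = 0.0362). Female Ddit3 was at 1.91, 3.56, 2.78 and 2.18 TPM in controls and 3.04, 2.27, 2.97 and 2.08 TPM in Kl/Kl libraries.

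The sensors themselves were at low TPM in all groups, averaged under 1 TPM and were tested with no filter and on voom, where none passed. Eif2ak3 (PERK) was at 0.893, 0.756 and 0.281 TPM in male controls and 0.761 to 1.20 TPM in male Kl/Kl libraries, and at 0.787 to 0.937 TPM in female controls against 0.784 to 0.851 TPM in Kl/Kl libraries other than Kl/Kl 3. On voom without control 3 its male change was 0.27 ± 0.17 (adjusted p = 0.302), and 0.56 ± 0.23 with control 3 (unadjusted p = 0.03, adjusted p = 0.102). Ern1 (IRE1) was at 0.436, 0.418 and 0.122 TPM in male controls and 0.390 to 0.627 TPM in Kl/Kl. Its change on the same test was 0.25 ± 0.16 (adjusted p = 0.299), and 0.63 ± 0.26 with control 3 (adjusted p = 0.105). Atf6 was at 0.431, 0.401 and 0.114 TPM in male controls and 0.367 to 0.417 TPM in Kl/Kl (0.01 ± 0.13, adjusted p = 0.946, and 0.42 ± 0.26 with control 3, adjusted p = 0.264).

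**Figure D3:**
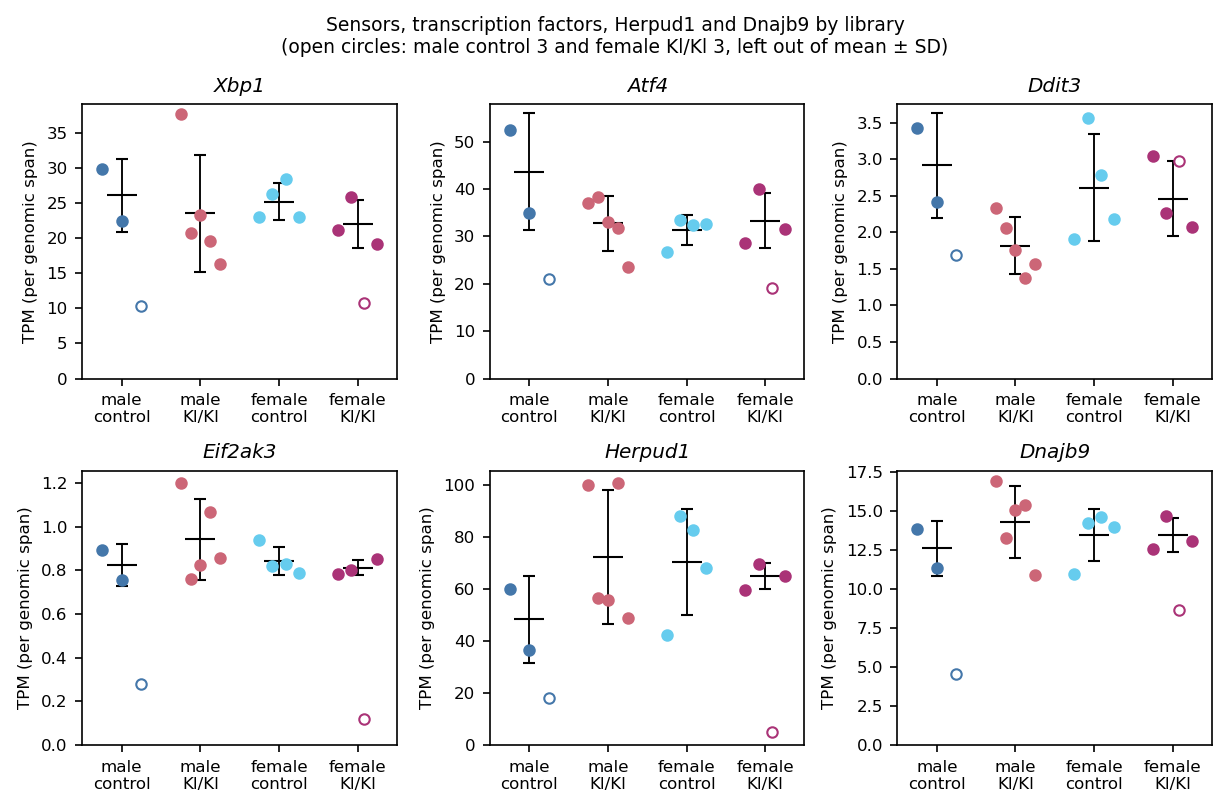
TPM of 3 transcription factors, the sensor Eif2ak3, Herpud1 and Dnajb9 in each library (y axis, TPM scaled by genomic span, starting at 0), by sex and genotype; bars give the mean ± SD without male control 3 and female Kl/Kl 3, drawn as open circles. Apart from the open circles, the control and Kl/Kl libraries overlap in each of these genes, except that male Ddit3 is lower in all 5 Kl/Kl libraries (1.37 to 2.33 TPM) than in controls 1 and 2.

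The 3 targets of ATF4 and CHOP were at low TPM and none passed the threshold on voom. Chac1, a glutathione-degrading enzyme, was at 0.692, 0.367 and 0.212 TPM in male controls and 0.0645 to 0.294 TPM in male Kl/Kl libraries (-1.41 ± 0.49 on voom without control 3 and -1.23 ± 0.45 with it, adjusted p = 0.0786 in both). Asns, asparagine synthetase, was at 0.548, 0.657 and 0.211 TPM in male controls and 0.321 to 0.540 TPM in male Kl/Kl. Female Asns was 0.386 to 0.510 TPM in controls and 0.389 to 0.484 TPM in Kl/Kl other than Kl/Kl 3 (2.33 TPM). Trib3, a pseudokinase induced by CHOP, was at 0.260 TPM or less in every library, and its groups overlapped in both sexes.

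The members with ERSE in their promoter window were set beside those without. Of the 10 with it, 8 were lower in every male Kl/Kl library than in controls 1 and 2, 5 of 8 tested fell, and the median change was -0.799. Of the 21 without it, these were 14, 4 of 16 tested and -0.382. Of all genes tested 22.7% were lower in every such library and 7.36% fell. The counts of members without overlap given here include members under the 1 TPM filter. With all male libraries 0 of the 10 and 0 of the 21 had no overlap (4.4% of all genes), 0 were called in either set, and the medians were -0.447 and -0.122. In females 6 of the 10 and 4 of the 21 had no overlap, with or without Kl/Kl 3 (3.9% of all genes without it, 3.54% with it), and 0 were called. The median changes were -0.364 and -0.0619 without Kl/Kl 3 and -0.517 and -0.333 with it. The 6 were Hsp90b1, Calr, Canx, Pdia6, Dnajc3 and Ero1b. The 4 without a match to these letters in their windows were Pdia3, Sdf2l1, Dnajb11 and Sel1l. Hyou1 did not overlap in females either but had no window. Pdia4, also without a match, fell in males without control 3 but overlapped in females. The 2 sets also differed in role. Those with ERSE were chaperones apart from Syvn1 and Derl3. Those without it included the sensors, transcription factors, targets of ATF4 and CHOP, and translocon genes that had a window. The element and the role thus cannot be told apart in these counts.

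The change in males and the change in females were compared in a model of all 4 groups, in which the scaling of each table cancels. With all 16 libraries 0 of 28 members passed (0 at an unadjusted p under 0.05, 0 on voom), against 0.211% of 8535 genes (7.73% at an unadjusted p under 0.05). Without the 2 libraries 0 of 28 passed in limma and on voom, against 3.89% of 8696 genes, and 7 had an unadjusted p under 0.05 (15.8% of all genes, in that direction), each with the more negative change in males: Calr, Canx, Pdia3, Dnajb11, Edem1, Derl1 and Derl2. The difference was 0.68 ± 0.28 for Calr (limma adjusted p = 0.185), 0.69 ± 0.36 for Hspa5 (adjusted p = 0.308) and 0.37 ± 0.11 for Derl2 (adjusted p = 0.0821). With all libraries these were -0.06 ± 0.52, 0.01 ± 0.53 and 0.14 ± 0.19. A larger male change in the chaperones was thus not shown, and with 2 male controls the differences carry wide errors.

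**Figure D4:**
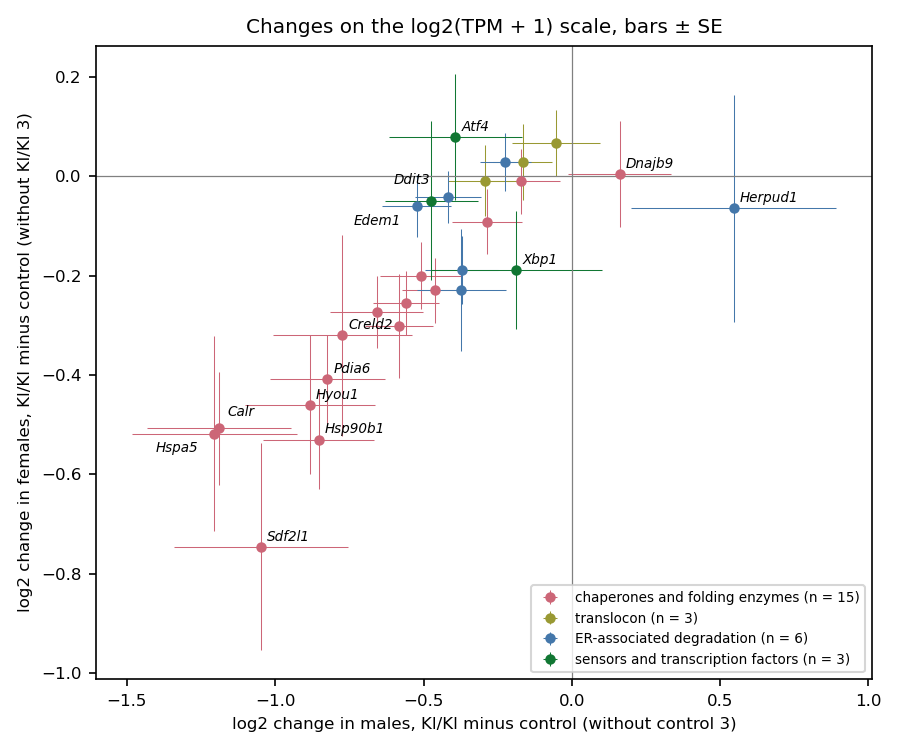
Change with Kl/Kl in males without control 3 (x axis) and in females without Kl/Kl 3 (y axis) for the 27 members tested in both, on the log2(TPM + 1) scale; bars are ± SE and colours give the role. Chaperones spread from Dnajb9 near 0 in both sexes to Hspa5 and Calr at -1.21 and -1.19 in males, Sdf2l1 has the lowest female value (-0.75), and Herpud1 is the member to the right of 0 that lies farthest out, at 0.55.

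Other genes of the same pathways were read from 5 lists of 97 genes in all. In males without control 3, 73 were tested, 7 fell and 2 rose, and their median change was -0.0736. These shares are near those of all genes, of which 7.36% fell and 3.16% rose (10.5% in either direction). With all male libraries 71 were tested, 0 fell and 1 rose (5.92% of all genes were called), and the median was 0.146. On voom with a minimum mean of 10 reads, 7 fell and 8 rose without control 3, where 960 of 18278 genes fell and 1796 rose. With all male libraries 3 fell and 11 rose on voom, where 936 of 18295 genes fell and 2424 rose. Control 3 was below every male Kl/Kl library in Erp29 (2.68 TPM), Ganab (6.24 TPM), Stt3b (0.986 TPM) and Vcp (6.02 TPM). The adjusted p with it was 0.476, 0.758, 0.975 and 0.432 for these. Among 20 other folding factors Erp29, a PDI-like chaperone, fell from 4.96 and 4.89 TPM to between 3.14 and 3.68 TPM (limma adjusted p = 0.0264), and Ganab, the catalytic subunit of glucosidase II, from 15.8 and 14.6 TPM to between 9.27 and 11.5 TPM (adjusted p = 0.0295). Among 20 translocon and N-glycosylation genes Stt3b, a catalytic subunit of oligosaccharyltransferase, fell by 0.36 ± 0.08 (adjusted p = 0.0307). Among 16 degradation genes Vcp, the ATPase that pulls proteins out of the ER, fell by 0.59 ± 0.12 (adjusted p = 0.0225). Among 16 signalling genes Atf6b, a relative of ATF6, fell by 0.60 ± 0.15 (adjusted p = 0.0448; 0.345 with control 3).

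The 25 genes of the integrated stress response, the arm that runs through ATF4, moved in both directions in limma in males without control 3. Nupr1, a stress-induced nuclear protein, rose from 2.03 and 1.54 TPM, with control 3 at 1.85 TPM, to between 3.24 and 5.59 TPM (0.90 ± 0.20, limma adjusted p = 0.0306). It also rose with all male libraries (0.89 ± 0.19, adjusted p = 0.0234), the only one of 71 pathway genes tested to do so in limma (3.74% of all genes rose). Stc2, a secreted glycoprotein, rose from 0.374 and 0.591 TPM to between 0.849 and 1.56 TPM (0.58 ± 0.13, adjusted p = 0.0309), and with control 3 kept it averaged under 1 TPM, below the filter of that fit. Shmt2, mitochondrial serine hydroxymethyltransferase, fell from 46.7 and 63.9 TPM to between 26.5 and 33.1 TPM, with control 3 at 34.9 TPM (-0.93 ± 0.16, adjusted p = 0.0124, and -0.72 ± 0.22 with control 3, adjusted p = 0.0736). Aars, alanyl-tRNA synthetase, fell by 0.45 ± 0.11 (adjusted p = 0.0393; 0.635 with control 3, which was at 2.73 TPM). Voom with a minimum mean of 10 reads called more of the 25 higher than lower. In males without control 3, 6 rose and 1 fell, where 1796 of 18278 genes rose and 960 fell. With all male libraries 7 rose and 1 fell, where 2424 of 18295 genes rose and 936 fell.

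In females none of the other pathway genes passed in limma or on voom, with or without Kl/Kl 3, and at an unadjusted p under 0.05 there were 0 of 71 with all libraries (4.82% of all genes). Without Kl/Kl 3, 4 of 72 were higher and 0 lower, against 13.9% and 4.6% of all genes. Stc2 was nearest, at 0.884, 0.640, 0.511 and 0.491 TPM in controls and 1.88, 1.94 and 1.22 TPM in Kl/Kl libraries 1, 2 and 4 (0.71 ± 0.12, limma adjusted p = 0.0827). Nupr1 was at 2.06 to 2.42 TPM in female controls and 2.17 to 2.78 TPM in these Kl/Kl libraries. The change differed between males and females, whose controls also differed in genotype and table, in 3 of 73 pathway genes without the 2 libraries. That share is near the 3.89% of all genes, and with all 16 libraries it was 0 of 72 (0.211% of all genes). Sex, control genotype and table cannot be told apart here. The 3 were Erp29 (adjusted p = 0.0388), Vcp (adjusted p = 0.0196) and Shmt2 (adjusted p = 0.0136), which fell in males and in females had changes of -0.03, 0.02 and 0.06.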

How the data were processed

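A male and a female table of TPM, of 8 libraries each, were deposited by the authors, with Ensembl genes (per the file headers), and the submitters' processing notes name Partek and genome build mm39. Aligner, counting method and strand setting: not given in the sources used here, so overlapping and antisense genes cannot be told apart. Per the labels, RNA was taken up with a miRNeasy Mini Kit and the library kit was New England Biolabs Ultra Directional. The deposited TPM values are relative to genomic span (introns included), so levels of different genes are not compared, and every change is within 1 gene. Reads were estimated from the lowest values of each column, and no counting interval was computed from them.

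Values were tested as log2(TPM + 1), where the pseudocount makes changes of low genes smaller, with limma 3.58.1 (trended eBayes) in R 4.3.3. Genes averaging 1 TPM or more in a fit were tested, with Benjamini-Hochberg adjustment over all genes and a threshold of 0.05. This left 27 of the 36 members in males and 28 in females. The choice to give results without male control 3 or female Kl/Kl 3 was made with their values known. Tables and plots used Python 3.11.15, pandas 2.3.3, NumPy 2.4.6 and matplotlib 3.10.9, and the fits were tested on simulated data. Alternatives were a pseudocount of 0.1, no filter, median-of-ratios scaling, array weights, voom, voom with a mean of at least 10 estimated reads, age, library name prefix, a replicate block, a model of all 4 groups and leaving out each library. Promoter windows are from RefSeq.

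Members and lists were chosen with earlier results of these data known. A rule gave full values to members past the threshold with all libraries, or in females without Kl/Kl 3, and to Hspa5, Hsp90b1, Calr, Xbp1, Atf4 and Ddit3, and to at most 4 called genes of each pathway list. The other genes given in full were picked after their values were seen. Replicate numbers are shared between genotypes. Same-numbered deviations from group means correlated at -0.177 to 0.041 in males and -0.116 to 0.29 in females with all libraries, so the numbers were not taken as pairs. In males without control 3 the deviations of the 2 controls mirror each other, so the correlations (0.127 and -0.0766) cannot show pairing. In females without Kl/Kl 3 all 3 correlations (0.212 to 0.476) were above 0.1, and the block changed no call there.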

Additional observations from a re-analysis of the deposited data

Results flagged for a closer look

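In groups of 4 or 5 libraries, 5 of 51 gene and group combinations had 1 library far from the others, by the gap to its neighbour relative to the range of the group, and chance gives about 5% of groups such a library. In 4 of the 5 it was the library labelled female Kl/Kl 3, which was the lowest of its group in Dnajb11 (1.483 TPM), Hyou1 (0.5381 TPM), Herpud1 (4.949 TPM) and Edem1 (1.122 TPM). That library also held the heart muscle and airway markers. In the fifth, female control 1 was the lowest control in Atf4 (26.76 TPM), and it was also the lowest female control in 13 of the 17 chaperones.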

How the results depend on the processing

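The main limits are the number of male controls and the spread of TPM between libraries. With all male libraries, 0 members passed, against 7 under median-of-ratios scaling, 15 with array weights, 1 on voom with either filter and 0 to 10 when each library was left out in turn (10 without control 3). In females 0 passed, against 8 with array weights, and 0 under every library left out. For the difference between the sexes 0 passed, against 2 with array weights, a fit whose weights stopped short of convergence. In males without control 3, 10 passed, against 2 with no filter, 18 with array weights, 5 on voom, 0 with a replicate block, 3 in the 4-group model and 0 to 8 with a further library left out (0 without control 1 or 2). In females without Kl/Kl 3, 0 to 1 passed with a further library left out. For the difference without both libraries 0 passed, against 1 with no filter, 3 with array weights, 1 with age, 1 with the library prefix and 0 to 1 with a further library left out. The other alternatives moved no count of members by over 1.5 times. The replicate block also gave 0 calls elsewhere. With 2 male controls, whether the numbers pair the samples could not be checked without control 3, so the loss of calls there stands. The cause of these shifts was not tested.

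The 10 members that fell in males without control 3 were negative in all 17 settings and called in 7 (Dnajc3) to 13 (Pdia4, Dnajb11) of them. Changes of sign were as follows. In males Dnajc3 was 0.0125 with a pseudocount of 0.1 and 0.00218 with the prefix, Canx was -0.165, -0.42, -0.00299 and -0.0334 under median-of-ratios scaling, array weights, voom and voom with 10 reads, Xbp1 was -0.0156 and -0.182 under the former pair of these, and Atf4 was 0.0888 with the block. In females Atf4 was 0.159, 0.0297, 0.0935 and 0.0829 under the same 4 settings as Canx, and Ddit3 was -0.118 with array weights and -0.00893 with age. Without the libraries apart, the block gave Xbp1 0.111 in males and Herpud1 0.0297 in females. With 1 library left out, male changes ran from -0.508 to 0.372 (Canx), -0.582 to 0.0751 (Pdia4), -0.463 to 0.229 (Dnajc3), -0.883 to 0.0531 (Hyou1), -0.523 to 0.0326 (Edem1), -0.187 to 0.534 (Xbp1) and -0.393 to 0.244 (Atf4), each lowest without control 3. Female changes ran from -0.264 to 0.0792 (Atf4) and -0.0929 to 0.123 (Ddit3). With a further library left out, Xbp1 in males ran from -0.384 to 0.00947, and in females Herpud1 ran from -0.285 to 0.0597, Atf4 from -0.0534 to 0.178 and Ddit3 from -0.165 to 0.0703.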

Other observations

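Male Kl/Kl libraries 1 and 4 had the highest levels of several stress genes, a pattern picked after the values were seen and not tested. Ppp1r15a, the regulatory subunit that directs dephosphorylation of eIF2 alpha, was at 15.4 and 12.4 TPM there and 5.17 to 5.61 TPM in the other 3 male Kl/Kl libraries, with male controls at 2.70 to 4.45 TPM. Sesn2, a stress-induced inhibitor of mTORC1 signalling, was at 8.58 and 8.03 TPM against 1.90 to 2.65 TPM. Ddit4, another inhibitor of mTORC1, was at 91.2 and 116 TPM against 11.2 to 23.0 TPM, and Cebpb, the transcription factor C/EBP beta, at 67.5 and 87.4 TPM against 15.0 to 40.5 TPM. The same libraries held the highest Herpud1 (99.9 and 101 TPM), whereas their Hspa5 (43.2 and 40.2 TPM) and Hsp90b1 (16.6 and 15.4 TPM) were the lowest of the 5. Their mitochondrial shares, 35.4% and 37.0%, were also the lowest of the male libraries.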
